A study of Mus musculus with 17 samples.

Results

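A set of 10 p53 target genes (Cdkn1a, Mdm2, Ccng1, Phlda3, Bax, Eda2r, Zmat3, Trp53inp1, Sesn2 and Aen) was followed through 17 single-cell RNA libraries after 2 drugs that damage DNA. All 10 were present among the 30406 genes shared by the gene lists of the libraries. They were taken by name as targets of p53, with earlier results of these data known. The cells were GFP+ cells sorted from mice that carried PDGFRb-Cre and the Z/EG reporter, and each library was made from skin or kidney with 10x Genomics 3′ chemistry. The skin set held 3 SARAWT libraries after PBS and 3 after bleomycin, and 1 SARATg library after each. Bleomycin was injected under the skin at 20 mg/kg for 2 weeks, 3 times a week by the labels and daily by the methods of the study. By those methods the skin was taken 1 week after the last injection, so the values are not from the time of dosing. The kidney set held 3 SARAWT libraries after vehicle and 3 after aristolochic acid (AA), and 2 SARATg libraries after vehicle and 1 after AA, with the drug given into the peritoneum at 5 mg/kg, 3 times a week for 3 weeks. All mice were 8 weeks old, SARAWT mice are wild type for the transgene, and SARATg mice carry human SARA (ZFYVE9) behind a stop that Cre removes. Recombination of Z/EG is permanent, so GFP marks any cell whose own or earlier history included Cre, and the sort held many cell types. Pdgfrb itself, the gene behind the sort, had 6.9 to 59.1 CPM (UMIs of a gene per 1000000 UMIs of the summed cells) in the skin libraries and 0.2 to 3.1 CPM in the kidney libraries. In kidney the labelled cell type, PDGFRb+ cells, was thus close to absent by its own marker.

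The p53 protein is a transcription factor that cells stabilise when their DNA is broken or carries bulky adducts. It binds DNA at sites made of paired decamers and raises genes that hold the cell cycle, repair DNA, tune metabolism or start apoptosis. Cdkn1a encodes p21, an inhibitor of cyclin-dependent kinases. Mdm2 encodes the ubiquitin ligase that marks p53 for destruction, and Ccng1 encodes cyclin G1, which acts on Mdm2 through a phosphatase, so both belong to the feedback on p53. Bax encodes a pore protein of the mitochondrial death pathway, Eda2r a death receptor of the TNF receptor family, Aen a nuclease that acts in apoptosis, and Phlda3 a pleckstrin homology protein that holds back Akt. Zmat3 encodes an RNA-binding zinc finger protein, Trp53inp1 a stress protein of the nucleus and of autophagy, and Sesn2 a sestrin that restrains mTORC1. Bleomycin breaks DNA strands, and aristolochic acid forms adducts on DNA after uptake and activation by the proximal tubule of the kidney.

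The promoters of 4 members are shown, each of which holds a match to the letters of the p53 decamer within 250 bases upstream of a gene start. A match is a description of the sequence, and binding was not measured. Each stretch of 80 bases is from RefSeq on GRCm38.p6, written 5′ to 3′ on the strand of the gene, and capitals mark the decamer matches.
Cdkn1a (chr17:29090882-29090961, plus strand): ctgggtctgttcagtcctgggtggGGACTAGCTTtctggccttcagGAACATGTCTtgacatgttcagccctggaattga
Ccng1 (chr11:40755427-40755506, minus strand): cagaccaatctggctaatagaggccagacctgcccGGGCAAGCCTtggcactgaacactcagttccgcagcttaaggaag
Mdm2 (chr10:117710900-117710979, minus strand): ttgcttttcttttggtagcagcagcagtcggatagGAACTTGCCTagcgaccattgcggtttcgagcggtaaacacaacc
Bax (chr7:45467055-45467134, minus strand): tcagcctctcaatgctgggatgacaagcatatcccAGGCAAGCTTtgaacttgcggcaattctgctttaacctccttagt
The matches began 73 and 51 bases upstream of the first Cdkn1a start, 185 upstream for Ccng1, 186 for Mdm2 and 201 for Bax. The window of a further Cdkn1a start (29093519 to 29093818) held none. The search read both strands of windows of 300 bases, 250 before and 50 after each start. Of the 8 members with a window, 5 held a match, while 9.55% of 27025 genes and 8.36% of 32851 windows held one. The member in addition to the 4 above was Aen, not shown, whose match began 121 bases upstream of 1 of its starts. None was found in the windows of Phlda3, Eda2r and Sesn2, which says only that the letters are not in those windows, and Zmat3 and Trp53inp1 had no window.

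By GENCODE vM21 on GRCm38, the build that the labels call mm10, Cdkn1a lies on chromosome 17 from 29090976 to 29100727 and Phlda3 on chromosome 1 from 135766119 to 135769136, both on the plus strand. Ccng1 (chromosome 11, 40748552 to 40755311), Mdm2 (chromosome 10, 117688875 to 117710758) and Bax (chromosome 7, 45461697 to 45466898) lie on the minus strand. On the minus strand are also Eda2r (chromosome X, 97333840 to 97377216), Zmat3 (chromosome 3, 32334792 to 32366014) and Sesn2 (chromosome 4, 132492032 to 132510501). Trp53inp1 (chromosome 4, 11156431 to 11174379) and Aen (chromosome 7, 78895854 to 78911209) lie on the plus strand.

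Several libraries stood apart from their labels, and each result below is read with that in view. Depth ran from 3355217 to 69765525 UMIs per skin library (28908 of 31972 cell barcodes kept) and from 28660151 to 137093834 per kidney library (57321 of 75562 kept). The kidney library labelled SARAWT vehicle 3 was 47.5% T cell-like and 12.3% proximal tubule-like, against 3.59% and 3.96% T cell-like and 79.0% and 73.5% proximal tubule-like in vehicle 1 and 2, and 49.96 to 62.0% and 6.24 to 25.3% in the 3 AA libraries. Its Havcr1, the tubule injury gene that encodes KIM-1, was at 16.6 CPM against 0.926 and 3.41 in vehicle 1 and 2 and 6.85 to 10.6 with AA. Mouse Zfyve9 was at 616 CPM in the library labelled SARAWT PBS 3 and at 26.1 and 12.1 in PBS 1 and 2, 7.83, 8.70 and 8.89 in bleomycin 1, 2 and 3, and 314 and 222 in the SARATg PBS and bleomycin libraries. The human ZFYVE9 entry, listed only for skin replicates 1 and 2 of SARAWT, was at 845 CPM in the library labelled PBS 1 and at 89.3 to 190 in the other 3. In kidney, Zfyve9 was at 159 CPM in the library labelled SARAWT AA 1 and at 12.1 and 12.8 in AA 2 and 3, at 26.4, 31.7 and 9.66 in the SARAWT vehicle libraries, at 99.7 and 93.3 in the SARATg vehicle libraries and at 19.6 in the library labelled SARATg AA 1. Skin replicates 1 and 2 share a longer gene list and Xist expression, and replicate 3 and SARATg share a shorter list and the Y-linked gene Ddx3y. In kidney, Xist was at 1407 CPM in SARAWT vehicle 2 and 1359 in the library labelled SARATg AA 1. Every other kidney library had Ddx3y, at 51.4 to 60.4 CPM. Kidney drug comparisons thus mix drug with sex, and wholly so among the SARATg libraries. The share of barcodes also found in another skin library was 7.38% in PBS 1, 17.6% in bleomycin 1, 22.1% in bleomycin 2 and 55.5% in PBS 2, and 0.594 to 0.824% elsewhere in skin. In kidney it was 1.66 to 2.13%. Nothing in the labels says that libraries of a group came from separate mice, so p-values measure only the spread between libraries.

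Cells were assigned to classes by marker gates, in which a cell needed at least 3 of 8 markers and a lead of 2 over the next class, and none of the members was a marker. Exactly 1 gate was passed by 69.1% of kept skin cells and 89.8% of kept kidney cells. For each library and class the UMIs were added up, and these sums were tested across libraries with edgeR's quasi-likelihood test and a Benjamini-Hochberg adjustment over all genes tested, with an adjusted p under 0.05 counted as called. A sum per class cannot tell fewer expressing cells from less RNA per cell.

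In skin as a whole, no member was called between SARAWT bleomycin and PBS, against a background of 0% of 15249 genes called. At an unadjusted p under 0.05 there were 2791 genes and 1 member, Phlda3, and DESeq2 called 1343 genes and 0 members. The log2 fold changes of 9 of 10 members were above 0, with a median of 0.39 against 0.01 over all genes. Phlda3, the Akt repressor, was at 28.5, 22.9 and 36.1 CPM in PBS 1, 2 and 3 and at 51.1, 41.2 and 41.0 in bleomycin 1, 2 and 3 (log2 fold change 0.73, SE 0.23, adjusted p = 0.16). Bax was at 113, 137 and 194 CPM with PBS and at 199, 200 and 214 with bleomycin (log2 fold change 0.59, adjusted p = 0.28). In both genes every bleomycin library lay above every PBS library, as did 6.22% of all genes. Cdkn1a was at 770, 768 and 659 CPM with PBS and at 630, 694 and 742 with bleomycin, so that the groups overlapped (log2 fold change 0.06). Without the library labelled PBS 3, Phlda3 (0.98, adjusted p = 0.036) and Bax (0.90, adjusted p = 0.037) were called, against 6.77% of 15392 genes. The PBS libraries left had Xist and the longer gene list, while bleomycin 3 had Ddx3y and the shorter list. Drug was thus mixed with sex and gene list there, as in every skin fit without PBS 3. A fit with the replicate number as a block called 588 genes (3.86%) and 0 members.

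Stromal-like cells passed a gate of fibroblast and matrix genes (540, 141 and 294 cells in PBS 1, 2 and 3 and 131, 171 and 96 in bleomycin 1, 2 and 3). Phlda3 rose there and was the only member called, against a background of 1.67% of 10138 genes. It was at 77.7, 46.1 and 102 CPM in the PBS libraries and at 210, 278 and 246 CPM in the bleomycin libraries (log2 fold change 1.68, SE 0.30, adjusted p = 0.043). Every bleomycin library lay above every PBS library, both among replicates 1 and 2 with the longer gene list and in replicate 3 with the shorter one. The call was lost without PBS 1, PBS 2, or any 1 bleomycin library (adjusted p = 0.075 to 0.16), and the log2 fold change then stayed between 1.45 and 1.75. It was also lost without the barcodes shared between libraries (1.83, adjusted p = 0.13), and without the libraries labelled PBS 1 and PBS 3 (2.43, adjusted p = 0.083), a fit that takes PBS 2, the 1 PBS library left, to vary like the others.

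Among the feedback genes in stromal-like cells, Ccng1 was at 44.3, 43.4 and 82.9 CPM with PBS and at 137, 173 and 138 with bleomycin (log2 fold change 1.37, SE 0.31, adjusted p = 0.062). Mdm2 was at 47.3, 93.5 and 173 CPM with PBS and at 168, 193 and 239 with bleomycin (0.91, adjusted p = 0.26). The Ccng1 groups did not overlap, while Mdm2 in the library labelled PBS 3 was above bleomycin 1. Among genes of cell death, Bax was at 102, 88.1 and 159 CPM with PBS and at 279, 292 and 235 with bleomycin (1.20, SE 0.28, adjusted p = 0.065), again without overlap. Eda2r was at 11.1, 8.1 and 33.4 CPM against 36.8, 24.2 and 55.1 (1.04, adjusted p = 0.28), and Aen at 15.4, 12.2 and 36.2 against 33.5, 41.3 and 52.0 (0.90, adjusted p = 0.24). Both overlapped through PBS 3, which held the highest PBS level of each of the 10 members in this class. The remaining members of other roles were less even. Zmat3 was at 26.7, 20.3 and 46.1 CPM with PBS and at 61.7, 71.7 and 61.2 with bleomycin (1.01, SE 0.31, adjusted p = 0.11), without overlap. Trp53inp1 was at 29.9, 27.1 and 69.3 CPM against 48.5, 90.4 and 71.0 (0.67), and Sesn2 at 14.8, 13.6 and 20.0 against 16.0, 27.3 and 24.7 (0.46).

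Cdkn1a, in contrast, was level in stromal-like cells by its mean. It was at 439, 668 and 741 CPM in the PBS libraries and at 348, 698 and 696 CPM in the bleomycin libraries (log2 fold change −0.09, SE 0.32, adjusted p = 0.90). The sign turned to 0.16 without bleomycin 1, to 0.12 without PBS 3 and to 0.14 without shared barcodes. The other 9 members had log2 fold changes above 0, and the median of all 10 was 0.96 against −0.02 over all genes. Of these, 4 (Ccng1, Bax, Phlda3 and Zmat3) had every bleomycin library above every PBS library, as did 14.1% of all genes. The same 4 had an unadjusted p under 0.05. With RLE size factors in place of TMM, 4 members and 2366 of 10138 genes did. With the replicate number as a block, Phlda3 (1.73, adjusted p = 0.025), Ccng1 (1.44, adjusted p = 0.037) and Bax (1.26, adjusted p = 0.041) were called, against 8.39% of all genes (4.2% called higher). DESeq2 also called 3 members in these cells, against 6.67% of genes. Without PBS 3 there were 5 members called, Phlda3, Ccng1, Bax, Zmat3 and Aen, against 1.31% of 10608 genes. As over all skin cells, that fit mixes drug with sex and gene list.

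**Figure D1:**
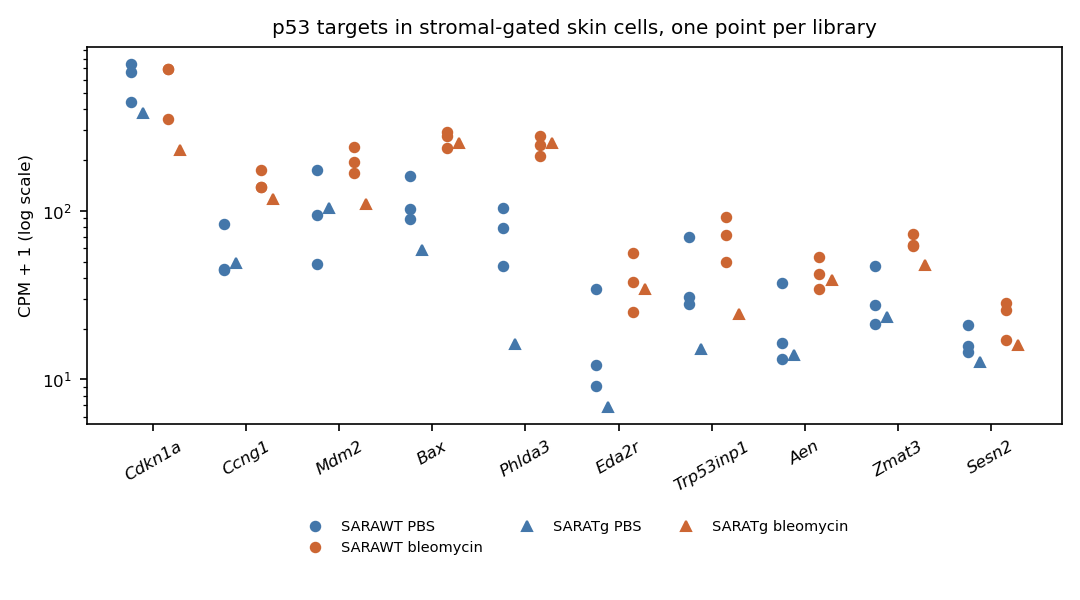
CPM of the 10 members in stromal-like skin cells of each library, plotted as CPM + 1 on a log axis, with circles for SARAWT, triangles for SARATg, blue for PBS and orange for bleomycin. Phlda3 sits between 46.1 and 102 CPM with PBS and between 210 and 278 with bleomycin in SARAWT, while the Cdkn1a points of both treatments overlap.

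The makeup of the stromal-like gate also differed between the groups. Its own 8 markers summed to 50294 to 87720 CPM with PBS and to 26228 to 47149 with bleomycin, and mural markers in it summed to 76.1 to 1049 CPM and 676 to 1389 CPM. All 8 macrophage markers were found at 121 to 380 CPM with PBS and 92.1 to 150 with bleomycin. T cell markers were at 1.36 to 6.56 and 1.41 to 5.46 CPM, with Cd5 at 0 in both groups. The 12 genes known to respond to tissue dissociation summed to 8897, 12027 and 7602 CPM with PBS and to 4075, 7003 and 5004 with bleomycin, with no overlap. The part of these changes in the member results was not tested. Of the stromal-like cells, 11.8% were near the cut of the gate, and with a gate of 4 markers the Phlda3 value was 1.73 with an adjusted p of 0.053.

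The share of stromal-like cells with a Phlda3 UMI was compared after each cell had been thinned to 1000 UMIs, since median depth differed (9950.5, 1122 and 14912.5 UMIs in PBS 1, 2 and 3 and 1185, 1175 and 15604 in bleomycin 1, 2 and 3). It was 6.90%, 6.58% and 5.17% with PBS and 13.9%, 13.7% and 18.3% with bleomycin, with no overlap. Before thinning it was 32.0%, 16.3% and 52.0% with PBS and 41.2%, 31.6% and 66.7% with bleomycin. Macrophage-like cells, which hardly carried the gene, had 0.185%, 0% and 0.271% with PBS and 0.691%, 0.445% and 0.124% with bleomycin after thinning, at median depths of 5055.5 to 11529 UMIs. Before thinning those shares ran from 0 to 2.90%. Cells under 1000 UMIs were left out, 76, 65 and 4 of the stromal-like cells in the PBS libraries and 59, 69 and 3 in the bleomycin libraries.

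In endothelial-like cells Cdkn1a fell with bleomycin. It was at 1138, 845 and 1668 CPM in PBS 1, 2 and 3 (68, 14 and 53 cells) and at 365 and 280 CPM in bleomycin 1 and 3 (13 and 33 cells), with bleomycin 2 left out of the fit because it had 9 such cells. The log2 fold change was −1.98 (SE 0.42, adjusted p = 0.047), Cdkn1a was the only one of 6 members tested that was called, and 0.914% of 4265 genes were called. These sums rest on 296, 67 and 670 Cdkn1a UMIs with PBS and on 25 and 60 with bleomycin. Every bleomycin library lay below every PBS library, as for 15.3% of all genes. The call was lost without PBS 1, PBS 3, bleomycin 1 or bleomycin 3 (adjusted p = 0.065 to 0.39, log2 fold change −1.64 to −2.05), and without PBS 1 and PBS 3 together (−1.36, adjusted p = 0.10). It was also lost with a gate of 4 markers (−1.93, adjusted p = 0.054) and with a stricter cell filter (500 or more genes a cell, and mitochondrial UMIs up to 10%), which left 1 bleomycin library (−1.90, adjusted p = 0.26). In these fits a group left with 1 library, as bleomycin is without either of its 2, is taken to vary like the other group. The block gave −2.18 (adjusted p = 0.0045, background 3.26%). Block values in these cells rest on replicates 1 and 3, since PBS 2 had no bleomycin library of its number in the fit.

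Of the other members tested in endothelial-like cells, 4 had every bleomycin library above every PBS library and none was called in the main fit. With the gene list as a term Phlda3 was called (2.30, adjusted p = 0.044, background 2.13%). Without PBS 3, 1 of 4 members tested was called higher, against 1.45% of 2890 genes called. Phlda3 was at 23.1, 0 and 57.3 CPM with PBS and at 219 and 154 with bleomycin (2.30, SE 0.59, adjusted p = 0.092; with the block 2.05, adjusted p = 0.032), where the 0 in PBS 2 allows up to 37.8 CPM. Bax was at 104, 114 and 174 CPM against 437 and 238 (1.22, adjusted p = 0.19), and Trp53inp1 at 34.6, 0 and 12.4 against 58.3 and 93.3 (2.08, adjusted p = 0.22). Those 4 of 6 members tested were Bax, Ccng1, Trp53inp1 and Phlda3, and 15.9% of all genes did the same. Mdm2 overlapped, at 38.5, 75.7 and 84.7 CPM with PBS and 87.5 and 74.7 with bleomycin (0.25). Eda2r, which did not pass the filter on low counts, was at 11.5, 25.2 and 74.7 CPM with PBS and at 14.6 and 18.7 with bleomycin. The 12 dissociation genes summed to 15706, 11514 and 6698 CPM in these cells with PBS and to 4098 and 4849 with bleomycin. Among them were Egr1 (−2.004, adjusted p = 0.060) and Zfp36 (−1.79, adjusted p = 0.074), an immediate early transcription factor and an RNA-decay protein, and the part of that shift in the Cdkn1a result was not tested. The endothelial markers themselves were level, at 5702 to 6119 CPM with PBS and 6037 to 6193 with bleomycin.

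Mural-like cells, pericytes and smooth muscle by their markers, gave few counts and 1 member that passed the filter on low counts. Cdkn1a was at 1494, 1844 and 1393 CPM in PBS 1, 2 and 3 (24, 12 and 46 cells) and at 919 and 559 CPM in bleomycin 2 and 3 (11 cells each). Both bleomycin libraries lay below the PBS libraries, as for 19.6% of all genes, and the gene was not called (log2 fold change −1.06, SE 0.28, adjusted p = 0.16, background 0.0727% of 1376 genes). With the block it was (−1.13, adjusted p = 0.0046, background 6.4%). That value rests on replicates 2 and 3, since PBS 1 had no bleomycin library of its number in the fit. Phlda3, which did not pass the filter, was at 45.9, 43.6 and 76.4 CPM with PBS (7, 3 and 27 UMIs). With bleomycin it was at 131 and 109 CPM (6 and 8 UMIs).

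Phlda3 also rose in Schwann-like cells, the glia of the dermal nerves. It was at 82.6 and 47.7 CPM in PBS 1 and 3 (25 and 43 cells) and at 178, 157 and 201 CPM in bleomycin 1, 2 and 3 (48, 17 and 98 cells), with no overlap (log2 fold change 1.68, SE 0.33, adjusted p = 0.034). It was the only one of 8 members called, against 2.8% of 6355 genes. Bax was at 96.3 and 114 CPM against 173, 198 and 196 (0.92, adjusted p = 0.11), and Cdkn1a at 447 and 210 against 253, 198 and 276 (−0.26). Bax and Phlda3 had every bleomycin library above both PBS libraries, as did 17.4% of all genes. The Phlda3 call was lost without any 1 bleomycin library, without PBS 3 (adjusted p = 0.066 to 0.134), with the block (1.76, adjusted p = 0.056, background 1.98%) and without shared barcodes (1.49, adjusted p = 0.19). Stromal markers in this gate summed to 6647 to 6851 CPM with PBS and to 13938 to 20194 with bleomycin, Schwann markers to 7335 to 18764 and 2855 to 5232, and 34.3% of its cells were near the cut. The 12 dissociation genes summed to 7569 and 3972 CPM there with PBS and to 3163, 2829 and 2826 with bleomycin, with no overlap. The part of these shifts in the Phlda3 result was not tested.

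Leukocytes and keratinocytes of skin showed no member past the threshold. In macrophage-like cells Cdkn1a was at 834, 723 and 759 CPM with PBS and at 733, 718 and 1098 with bleomycin (0.21, adjusted p = 0.72), and none of 9 members tested was called by edgeR or DESeq2 or had an unadjusted p under 0.05 (background 0.196% of 10718 genes, 1458 of them at an unadjusted p under 0.05). Phlda3 stayed between 0 and 2.86 CPM with PBS and between 2.59 and 3.72 with bleomycin in these cells. Bax, in contrast, was present there at 109, 151 and 208 CPM with PBS and 190, 190 and 220 with bleomycin (0.41). Keratinocyte-like cells had 0 of 8 members called by edgeR (0% of 5818 genes, 732 at an unadjusted p under 0.05) and T cell-like cells 0 of 9 (0.0441% of 9073 genes), with no member at an unadjusted p under 0.05 in either. Phlda3 was at 70.5, 68.8 and 79.1 CPM with PBS in keratinocyte-like cells and at 171.5, 104 and 53.7 with bleomycin, so the groups overlapped. No member was called by edgeR in skeletal muscle-like (0 of 7, background 0.174%), dendritic-like (0 of 9), mast-like (0 of 3) or neutrophil-like cells (0 of 5). In dendritic-like, mast-like and neutrophil-like cells the background was 0%. At an unadjusted p under 0.05 there was 1 member in dendritic-like cells, with 1135 of 9311 genes. There was also 1 in neutrophil-like cells, with 106 of 2425 genes, and 0 in skeletal muscle-like and mast-like cells.

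**Figure D2:**
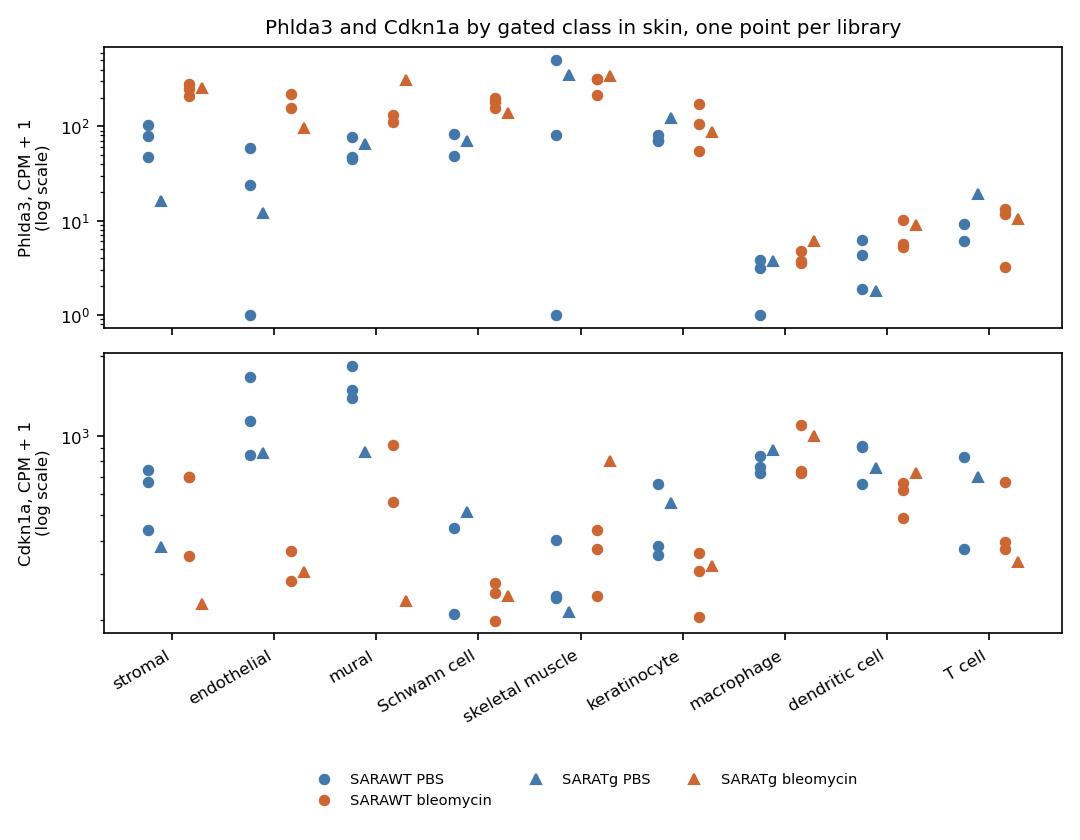
CPM of Phlda3 and Cdkn1a by gated cell class and library in skin, plotted as CPM + 1 on a log axis, with circles for SARAWT, triangles for SARATg, blue for PBS and orange for bleomycin. Phlda3 lies higher with bleomycin in stromal-like, endothelial-like, mural-like and Schwann-like cells and near the bottom of the axis in macrophage-like cells. Its SARAWT mural-like points rest on 3 to 27 UMIs. Cdkn1a lies lower with bleomycin in endothelial-like cells (280 and 365 against 845 to 1668 CPM).

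The 2 SARATg skin libraries allow no test between treatments, and their intervals are exact Poisson intervals at 95% that cover counting error only. In stromal-like cells Phlda3 was at 15.1 CPM (13.3 to 17.0) with PBS and at 251 CPM (243 to 260) with bleomycin. Bax was at 57.2 and 253 CPM, Ccng1 at 48.2 and 116, and Eda2r at 5.85 and 33.5, while Mdm2 was at 103 and 109 CPM and Sesn2 at 11.6 and 14.9. Cdkn1a was lower with bleomycin, at 378 CPM (368 to 387) with PBS and 229 CPM (220 to 237) with bleomycin. Endothelial-like cells had 859 CPM of Cdkn1a with PBS and 304 with bleomycin (41 and 17 cells), and mural-like cells 869 and 235. Phlda3 was at 11.1 and 94.0 CPM in those endothelial-like cells (2 and 13 UMIs) and at 63.6 and 308 in the mural-like cells (12 and 127 UMIs). In the skin as a whole, the drug effect was not called as different between the genotypes for any of the 10 members (0% of 17961 genes called, 997 genes and 0 members at an unadjusted p under 0.05, 0 members by DESeq2), in a fit that takes each single SARATg library to vary like the SARAWT libraries. The groups follow the labels, which the Zfyve9 level of the library labelled SARAWT PBS 3 and the human ZFYVE9 level of the one labelled SARAWT PBS 1 go against. A fit of treatment over both genotypes called 6 members in stromal-like cells (Phlda3 2.24, adjusted p = 0.021), where 1546 of 10937 genes (14.1%) were called.

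Other genes of the p53 pathway in stromal-like skin cells were listed with their roles and counted. Of 9 tested regulators of p53 none was called (median log2 fold change −0.16), nor of 5 other arrest targets (0.21), 7 other apoptosis targets (0.12) or 8 targets in repair and metabolism (0.17), against a median of −0.02 over all genes. Tnfrsf10b, a death receptor, had a log2 fold change of 1.46 (adjusted p = 0.084), and Plk2, a polo-like kinase, one of 0.91 (adjusted p = 0.087; with the block 0.94, adjusted p = 0.048). Of 8 tested genes of the integrated stress response 1 was called, Psat1 of serine synthesis, at 13.4 to 14.3 CPM with PBS and 40.5 to 46.2 with bleomycin (1.70, SE 0.21, adjusted p = 0.037). None of 10 proliferation genes (median 1.14) and none of 12 dissociation genes (median −0.73) was called.

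In kidney the comparison turned on 1 library. In proximal tubule-like cells, the reabsorbing epithelium that takes up aristolochic acid, vehicle 1 and 2 were low for the members, and the library labelled vehicle 3 lay above the lowest AA library for 6 of 10. Those cells numbered 6233, 6714 and 802 in vehicle 1, 2 and 3 and 427, 972 and 466 in AA 1, 2 and 3. With all 6 libraries, none of the 10 members was called, and 0% of 11839 genes were (1106 genes and 1 member, Zmat3, at an unadjusted p under 0.05, and 67 genes and 0 members by DESeq2). All 10 log2 fold changes were above 0, with a median of 0.82 against −0.01 over all genes, and adjusted p-values ran from 0.49 to 0.76.

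Phlda3 in proximal tubule-like cells was at 0.98, 1.58 and 24.9 CPM in vehicle 1, 2 and 3 and at 20.1, 39.8 and 56.4 CPM in AA 1, 2 and 3 (82, 105 and 234 UMIs against 109, 313 and 273; log2 fold change 1.94, SE 1.19). Eda2r was at 0.048, 0.075 and 6.1 CPM with vehicle and at 5.34, 8.01 and 14.9 with AA (4, 5 and 57 UMIs against 29, 63 and 72; 2.14). For the Akt repressor and the death receptor alike, the library labelled vehicle 3 lay above AA 1. Bax had the smallest fold change, at 92.9, 95.5 and 102 CPM with vehicle and 125, 145 and 129 with AA (0.26, SE 0.18), without overlap. Aen was at 24.8, 20.1 and 43.7 CPM against 39.0, 60.3 and 59.7 (0.65).

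Cdkn1a was at 24.8, 7.34 and 317 CPM with vehicle and at 281, 200 and 328 with AA (log2 fold change 0.995, SE 1.18). Ccng1 was at 81.0, 83.0 and 237 CPM against 243, 294 and 373 (0.97, SE 0.45), and Mdm2 at 41.8, 30.7 and 71.2 against 74.0, 80.5 and 106.5 (0.65). The p21 gene thus overlapped between the groups through vehicle 3, while the feedback genes on p53 did not overlap. Zmat3 was at 8.26, 9.49 and 25.7 CPM against 28.3, 32.6 and 47.1 (1.12, SE 0.46), the smallest unadjusted p of the members. Trp53inp1 was at 9.51, 11.1 and 128 CPM against 86.1, 66 and 119.5 (0.66), and Sesn2 at 13.7, 14.7 and 42.1 against 46.4, 20.1 and 42.2 (0.41). Trp53inp1 was highest of all 6 libraries in the one labelled vehicle 3. Ccng1, Mdm2, Bax and Zmat3 (4 of 10) had every AA library above every vehicle library, as did 15.6% of all genes.

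Without the library labelled vehicle 3, 6 of 10 members were called higher with AA in proximal tubule-like cells, against a background of 4.01% of 12153 genes (3.33% called higher). It is given in full because the cell makeup of that library goes against its label. Eda2r had a log2 fold change of 6.96 (SE 0.65, adjusted p = 0.0092), Phlda3 4.71 (SE 0.50, adjusted p = 0.012) and Cdkn1a 3.79 (SE 0.62, adjusted p = 0.031). Trp53inp1 had 2.91 (SE 0.27, adjusted p = 0.0092), Zmat3 1.80 (SE 0.25, adjusted p = 0.021) and Ccng1 1.67 (SE 0.25, adjusted p = 0.025). The receptor gene Eda2r, the most changed, rests on 4 and 5 UMIs in vehicle 1 and 2. Not called were Mdm2 (1.03, adjusted p = 0.081), Aen (1.02, adjusted p = 0.094), Sesn2 (1.11, adjusted p = 0.11) and Bax (0.29, adjusted p = 0.41). All 10 members then had every AA library above both vehicle libraries, as did 30.9% of all genes. Without vehicle 3 and the library labelled AA 1, which leaves 2 libraries a group, none of the 10 and none of 13608 genes was called in these cells. Members were also called in both sub-gates of the proximal tubule without vehicle 3, with 7 of 10 members called in convoluted-like cells (background 2.64%, 2.21% called higher). In straight-like cells 4 of 9 were called, from 26 to 131 AA cells per library (background 3.37%, 2.31% called higher). Without vehicle 3 and AA 1, 6 of 10 were called in convoluted-like cells (background 0.396% of 11863 genes) and 1 of 9 in straight-like cells (background 1.11% of 9303 genes). With all libraries none was called in either sub-gate (0% of genes), by edgeR or by DESeq2.

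**Figure D3:**
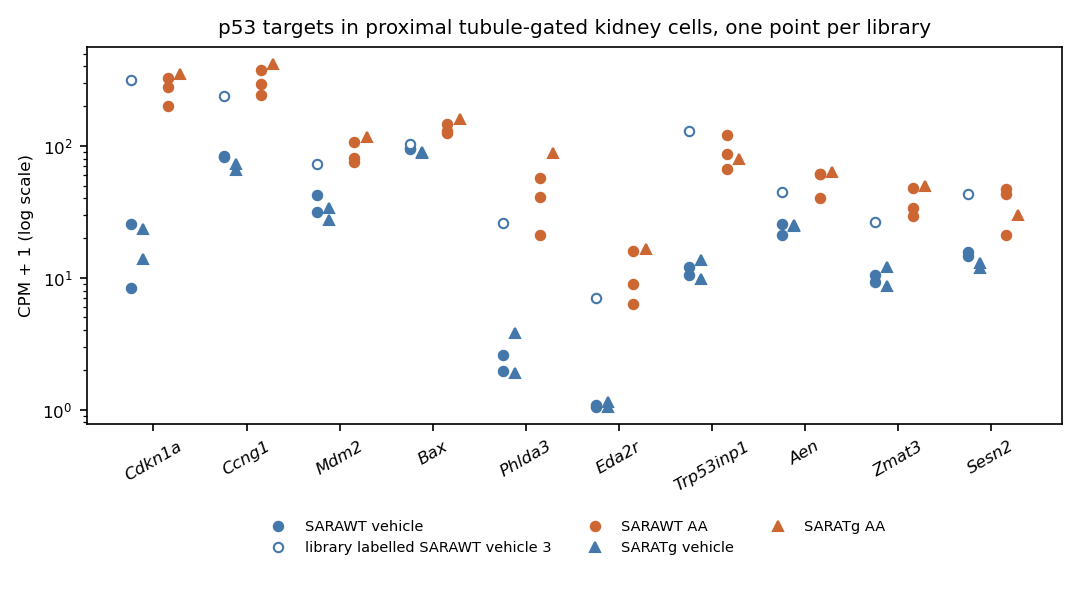
CPM of the 10 members in proximal tubule-like kidney cells of each library, plotted as CPM + 1 on a log axis, with circles for SARAWT, triangles for SARATg, blue for vehicle, orange for AA and an open circle for the library labelled SARAWT vehicle 3. That circle lies at 317 CPM for Cdkn1a, beside the AA values of 200 to 328, while vehicle 1 and 2 lie at 24.8 and 7.34.

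Leukocyte transcripts in the proximal tubule-like gate were low but not equal, with T cell markers at 2.32 to 28.2 CPM in the vehicle libraries and 43.6 to 79.4 with AA, and all 8 markers found in both groups. Tubule markers summed to 11144 to 17329 CPM with vehicle and to 9540 to 12076 with AA. The part of these shifts in the member results was not tested. In T cell-like cells, where Phlda3 was at 2.35, 2.40 and 7.64 CPM with vehicle and 5.92, 5.64 and 6.39 with AA, none of 9 members was called by edgeR (0% of 11677 genes, 548 genes and 0 members at an unadjusted p under 0.05). After thinning to 1000 UMIs, 0.0975%, 0.135% and 2.38% of proximal tubule-like cells of vehicle 1, 2 and 3 and 1.87%, 4.51% and 5.02% of AA 1, 2 and 3 had a Phlda3 UMI. In T cell-like cells those shares were 0.709%, 0% and 0.715% with vehicle and 0.759%, 0.626% and 0.482% with AA. The T cell-like shares did not order the groups, while the tubule shares did when vehicle 3 was set aside. Before thinning they were 1.01%, 1.04% and 18.7% against 15.7%, 19.8% and 26.2% in tubule, at median depths of 6849.5 to 12169 UMIs, and 0.552 to 2.53% in T cell-like cells, at 2443 to 4881.5 UMIs. Thinning left out 79, 25 and 5 tubule cells of the vehicle libraries and 0, 18 and 8 of the AA libraries.

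Over all kidney cells, where vehicle 3 and AA libraries hold mostly leukocytes, none of 10 members was called (0% of 15720 genes, 1358 genes and 0 members at an unadjusted p under 0.05, 53 genes and 0 members by DESeq2). That fit has little power, so the lack of calls does not show that the groups were alike. Cdkn1a was at 26.2, 14.5 and 155 CPM with vehicle and at 113, 119 and 108 with AA (0.69, adjusted p = 0.66), highest in the library labelled vehicle 3. Phlda3 was at 1.497, 2.67 and 18.5 CPM against 13.3, 23.6 and 17.1 (1.16, adjusted p = 0.53). Sesn2 was the single member with every AA library below every vehicle library (−0.40), as for 3.51% of all genes. Without vehicle 3, 4 members were called, Cdkn1a (2.28), Trp53inp1 (1.77), Eda2r (4.65) and Phlda3 (2.99, adjusted p = 0.0087), against 32.5% of 16150 genes (17.6% called higher). Then 7 of 10 had every AA library above both vehicle libraries, against 35.4% of genes. The same 4 were called without vehicle 3 and AA 1, against 9.33% of 16090 genes.

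In macrophage-like kidney cells Cdkn1a was at 16.9, 36.9 and 98.1 CPM with vehicle and at 119, 144 and 143 with AA, with no overlap, and was not called (1.27, SE 0.57, adjusted p = 0.74, background 0% of 10912 genes; 0 members by DESeq2, 1 at an unadjusted p under 0.05). Phlda3 was at 1.61, 5.87 and 5.599 CPM against 15.7, 10.9 and 9.76 (1.29, adjusted p = 0.73). The share of all genes at an unadjusted p under 0.05 in these cells is not given here. Of 9 members tested, 4 (Cdkn1a, Mdm2, Phlda3 and Aen) were higher in every AA library than in every vehicle library, as were 9.68% of all genes. In these 4 the library labelled vehicle 3 lay below each AA library. Without vehicle 3, Cdkn1a was called (2.29, SE 0.30, adjusted p = 0.011, background 11.7% of genes, 5.96% called higher). Endothelial-like cells had Cdkn1a at 141, 160 and 1095 CPM with vehicle and at 881 and 456 in AA 1 and 2 (0.50, adjusted p = 1.0), with 20 cells in AA 2, and without vehicle 3 the value was 2.28 (adjusted p = 0.069, background 0.325%).

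In the distal nephron Cdkn1a again was high in the library labelled vehicle 3. In cells of the thick ascending limb gate it was at 14.2, 3.52 and 393 CPM with vehicle and at 142, 12.7 and 99.0 with AA, and without vehicle 3 it was called (3.83, SE 0.69, adjusted p = 0.014, background 1.51%, 0.841% called higher). That call rests on 4 and 2 Cdkn1a UMIs in vehicle 1 and 2 and on 39, 1 and 41 in AA 1, 2 and 3, and AA 2, with 13 cells, lay below vehicle 1. In cells of the distal convoluted tubule gate it was at 59.3, 54.6 and 317 CPM against 332, 72.4 and 96.5, and without vehicle 3 was called (1.71, adjusted p = 0.047, background 4.06%, 1.67% called higher). Of the cells in that gate, 50.8% were near its cut. With all libraries edgeR called neither (background 0% in both), and the thick ascending limb value was −0.31. Nor was a member called in intercalated-like (0 of 4, background 0.892%) or dendritic-like cells (0 of 5, background 0.128%), or in B cell-like, monocyte-like, neutrophil-like or natural killer-like cells (background 0%). Cdkn1a was still higher in every AA library than in every vehicle library in neutrophil-like cells, as were 7.16% of genes. It was at 68.3, 75.0 and 152 CPM there with vehicle and at 159, 422 and 586 with AA (1.58, adjusted p = 0.47). The same held in dendritic-like cells (2.19, 5.87% of genes) and in intercalated-like cells, fitted without vehicle 3 (1.26, 15.2% of genes). No member did so in B cell-like, monocyte-like or natural killer-like cells.

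**Figure D4:**
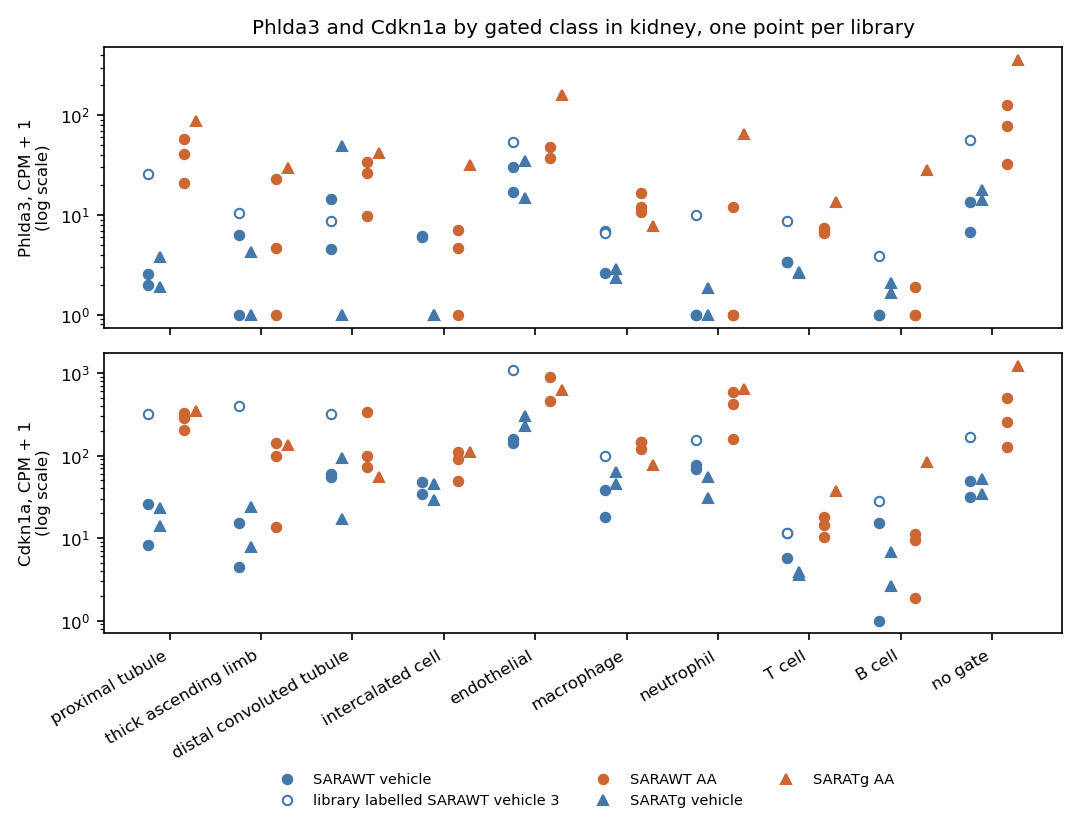
CPM of Phlda3 and Cdkn1a by gated cell class and library in kidney, plotted as CPM + 1 on a log axis, with circles for SARAWT, triangles for SARATg, blue for vehicle, orange for AA and an open circle for the library labelled SARAWT vehicle 3. For Cdkn1a the open circle lies among or above the AA circles in the proximal tubule, thick ascending limb and endothelial-like classes, at 317, 393 and 1095 CPM.

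Among the other p53 pathway genes in kidney, none was called with all libraries. Without vehicle 3 in proximal tubule-like cells, Plk2 was called of 6 arrest targets (3.68), and Bbc3 (3.44), Fas (1.48) and Tnfrsf10b (3.34) of 9 apoptosis targets, where Bbc3 encodes the BH3 protein Puma and Fas a death receptor. Of 11 tested targets in repair and metabolism, Ephx1, an epoxide hydrolase, went from 0.347 to 0.722 CPM with vehicle to 30.7 to 64.5 CPM with AA (6.18), and Gdf15, a stress cytokine, from 18.9 to 19.2 CPM to 140 to 195 CPM (2.90). None of 10 regulators of p53 was called there. Of the 10 proliferation genes 5 were called (2.08 to 2.79), against the 4.01% of all genes given above, and of 12 dissociation genes 1, Egr1 (3.29). The median log2 fold changes were −0.11 for regulators, 1.87 for arrest, 1.13 for apoptosis and −0.13 for repair and metabolism, against 0.02 over all genes. Over all kidney cells without vehicle 3, Trp53, which encodes p53, was at 34.9 to 38.2 CPM with vehicle and 64.1 to 66.9 with AA (0.69). All 10 proliferation genes were called there, against 32.5% of all genes. Vehicle 1 and 2 were 79.0% and 73.5% proximal tubule-like, and the AA libraries 6.24 to 25.3%. The part of that difference in makeup in these values was not tested.

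The library labelled SARATg AA 1 had the highest level over all kidney cells for 9 of 10 members, all but Trp53inp1. How many of all genes were highest there was not counted, so this is not read as particular to the members. Cells that passed no gate, 12.8% of that library, held 9482 of its 15867 Cdkn1a UMIs and 2780 of its 4294 Phlda3 UMIs. In its proximal tubule-like cells Sesn2 (28.7 CPM) and Trp53inp1 (78.5) lay below SARAWT AA 1 (46.4 and 86.1) and AA 3 (42.2 and 119.5). Xist was at 1359 CPM in that library, while Ddx3y was at 60.4 and 57.9 in the SARATg vehicle libraries. Drug and sex thus cannot be told apart in comparing that library with them. Over all its cells, Cdkn1a was at 327 CPM (322 to 333) against 33.4 and 38.9 in the SARATg vehicle libraries, Phlda3 at 88.6 (86.0 to 91.3) against 4.67 and 4.72, and Mdm2 at 85.7 against 36.2 and 31.8. In its 841 proximal tubule-like cells, Phlda3 was at 87.4 CPM (81.0 to 94.2) against 0.895 and 2.82, Cdkn1a at 347 against 13.0 and 22.4, and Eda2r at 15.6 against 0.141 and 0.0554. With 1 library these are values without a test, and outside the tubule they were as follows. Cdkn1a was at 82.8 CPM in its B cell-like cells against 1.61 and 5.80, and at 36.3 in its T cell-like cells against 2.56 and 2.87. Phlda3 was at 159 CPM in its endothelial-like cells against 33.5 and 13.7. In macrophage-like cells Cdkn1a was at 75.1 CPM against 61.6 and 43.8, the smallest of these gaps.

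A difference in the drug effect between SARATg and SARAWT was tested in kidney in a fit of 4 groups that takes the single library labelled SARATg AA to vary like the others. By Zfyve9 that library (19.6 CPM) and the one labelled SARAWT AA 1 (159 CPM) both go against their genotype labels, so no direction between genotypes is read from this fit. Over all cells none of the 10 members was called (0% of 17731 genes, 455 genes and 2 members at an unadjusted p under 0.05, 0 members by DESeq2). The fit has too little power for the lack of calls to say whether the genotypes differed. All 10 differences were above 0, with a median of 0.999 on the log2 scale against 0.06 over all genes, and Phlda3 had 2.92 (adjusted p = 1.0). None was called in proximal tubule-like cells (0% of 13423 genes). In B cell-like cells the Cdkn1a difference was 5.84 (adjusted p = 0.076, background 0.0947%), and it rests on that single library labelled SARATg AA. These values change with vehicle 3, without which the Phlda3 difference over all cells was 1.08 and that of Trp53inp1 −0.99.

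The drugs, doses and tissues differ together, so tissue, drug and dose cannot be told apart in a difference between the 2 effects. With all libraries no member was called over all cells (0% of 17482 genes called), in macrophage-like cells (background 0.0416%), in endothelial-like cells (0%) or in T cell-like cells (0%), by edgeR, and the unadjusted p was under 0.05 for 0, 0, 4 and 0 members in turn. Those 4, in endothelial-like cells, were Cdkn1a, with the higher value in kidney (2.53), and Ccng1 (−2.43), Trp53inp1 (−2.28) and Phlda3 (−2.08), with the higher value in skin. The share of all genes under that p is not given here, so the 4 are not read as particular to the members. The fit over all cells has little power, and its lack of calls does not show that the effects were alike. Without the kidney library labelled vehicle 3, the effect in kidney exceeded that in skin over all cells for Cdkn1a (2.20, SE 0.40, adjusted p = 0.0071), Phlda3 (2.27, SE 0.45, adjusted p = 0.0097) and Eda2r (4.08, SE 0.82, adjusted p = 0.010), against 17.3% of 18025 genes called. Cdkn1a, the arrest gene, also differed then in macrophage-like cells (2.09, adjusted p = 0.027, background 1.9%) and in endothelial-like cells (4.34, adjusted p = 0.023, background 0.349%). The other 5 members tested in endothelial-like cells had differences below 0 in that fit, from −0.04 for Mdm2 to −2.64 for Ccng1 (adjusted p = 0.30), and none was called.

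Differences in drug effect between cell classes of the same tissue were tested in a fit with the library as a term. In skin, the effect in stromal-like cells minus that in macrophage-like cells was not called for any of the 10 members (background 0.804% of 12690 genes), and 5 members had an unadjusted p under 0.05. They were Mdm2 (1.06, adjusted p = 0.12), Aen (1.13), Ccng1 (1.06), Phlda3 (1.04) and Bax (0.72). The share of all genes under that p is not given here, so the 5 are not read as particular to the members. The effect on Cdkn1a in stromal-like minus endothelial-like cells was 1.71 (adjusted p = 0.15, background 0.647%). In kidney, none was called in proximal tubule-like minus endothelial-like cells (background 0.0162% of 12341 genes) or minus macrophage-like cells (0% of 13156 genes). DESeq2 called 0 members in each of these 4 differences. Without vehicle 3, the tubule effect exceeded the endothelial one for Phlda3 (3.25, SE 0.74, adjusted p = 0.0007), Trp53inp1 (3.12), Ccng1 (2.49) and Cdkn1a (1.79), against 3.39% of 12051 genes called. That fit has 2 libraries a group, and its endothelial-like side rests on few UMIs. In AA 1 and 2 those cells held 25 and 3 UMIs of Phlda3, 8 and 1 of Trp53inp1, 17 and 0 of Ccng1 and 607 and 29 of Cdkn1a. The tubule effect exceeded the macrophage one for Zmat3 (1.74), Trp53inp1 (1.64) and Ccng1 (1.38), against 6.45% of 13293 genes.

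**Figure D5:**
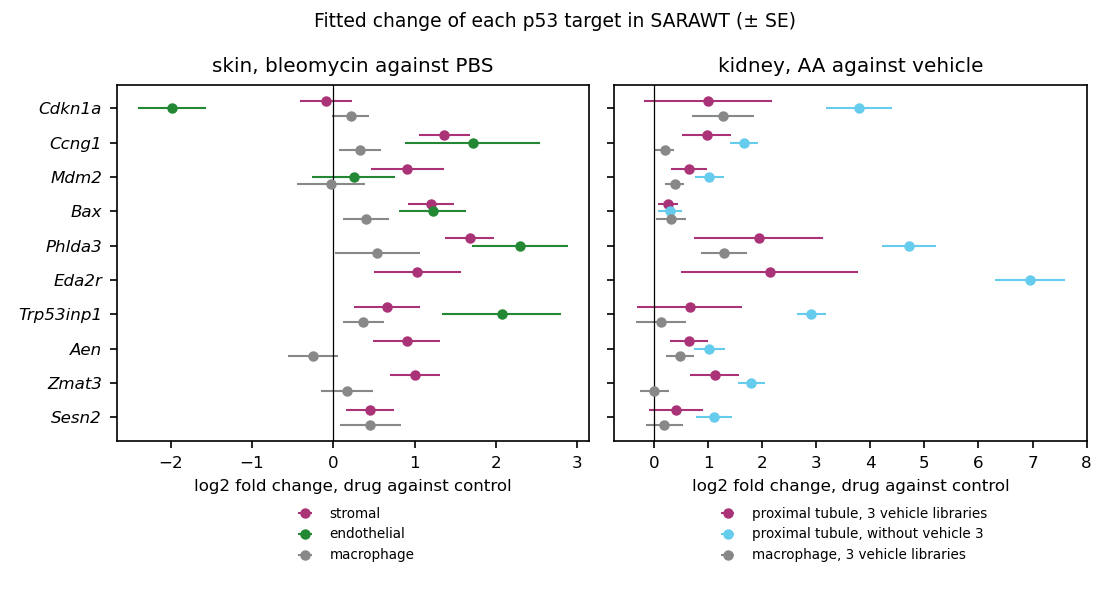
Log2 fold change of each member with drug in SARAWT libraries, with bars of 1 SE, in skin stromal-like, endothelial-like and macrophage-like cells and in kidney proximal tubule-like cells with 3 and with 2 vehicle libraries and macrophage-like cells. Cdkn1a lies at −0.09 in stromal-like and −1.98 in endothelial-like skin cells, and Phlda3 goes from 1.94 to 4.71 in proximal tubule-like cells when the library labelled vehicle 3 is left out.

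In control skin the members were highest in different classes, compared over the classes with at least 2 SARAWT PBS libraries of 10 cells or more. Cdkn1a in SARAWT PBS libraries was highest in mural-like cells (1577 ± 237 CPM, SD, n = 3) and lowest in skeletal muscle-like cells (295 ± 90.7, n = 3), and each class overlapped with the next in that order. Ccng1 was highest in skeletal muscle-like cells (407 ± 137, n = 3), beyond the range of T cell-like cells (76.2 ± 28.0, n = 2). The muscle values of PBS 1 and 2 rest on 25 and 16 Ccng1 UMIs. Over all skin libraries 87.4% of cells in the muscle gate were near its cut. Mdm2 was highest in macrophage-like cells (384 ± 178, n = 3), beyond the range of keratinocyte-like cells (128 ± 44.9, n = 3). Phlda3 ran from 196 ± 273 (n = 3) in skeletal muscle-like cells, 75.3 ± 28.2 in stromal-like and 72.8 ± 5.48 in keratinocyte-like cells down to 1.66 ± 1.48 in macrophage-like cells, with the muscle values between 0 and 507. Eda2r was at 37.2 ± 33.2 CPM in endothelial-like, 19.55 ± 26.7 in skeletal muscle-like and 17.5 ± 13.8 in stromal-like cells (n = 3 each), and the stromal-like range lay above that of keratinocyte-like cells (2.54 ± 2.20). It had no UMI in the PBS libraries of 7 of these classes. A count of 0 allows up to 0.363 to 51.0 CPM in those libraries, since 3 counts are the floor. Trp53inp1 was highest in T cell-like cells (176 ± 50.2, n = 2), and those overlapped with cells of the gate for group 2 innate lymphoid cells (144 ± 74.2, n = 2). Bax ran from 175 ± 56.5 CPM in dendritic-like cells to 60.7 ± 3.83 in mural-like cells (n = 3 each).

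In vehicle kidney, Cdkn1a had the highest mean in endothelial-like cells (465 ± 545 CPM, n = 3, from 141, 160 and 1095 in vehicle 1, 2 and 3) and the lowest in T cell-like cells (8.62 ± 3.30, n = 3), with each neighbouring class overlapping. In vehicle 1 and 2 dendritic-like cells were as low, at 4.15 and 4.13 CPM, against 52.6 in vehicle 3. Bax was at 207 ± 49.6 CPM in endothelial-like, 202 ± 27.9 in monocyte-like and 162 ± 48.0 in macrophage-like cells (n = 3 each), which overlapped, and Ccng1 had its highest mean, 147 ± 25.9, in intercalated-like cells (n = 2). The proximal tubule-like mean of Ccng1 (134 ± 89.5, n = 3) was carried by the library labelled vehicle 3, at 237 CPM against 81.0 and 83.0 in vehicle 1 and 2.

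The genes whose levels were most like the mean of the members over 99 sums of library and class in skin (15 classes) were Lrrc59 (Pearson r = 0.69), Timp1 (0.65), Dynlrb1 (0.64), Uba1 (0.63) and Tmem9b (0.63). In kidney, over 113 sums (15 classes), they were Ephx1 (0.70), Bst2 (0.67), Ptp4a3 (0.66), Bcam (0.65) and Ifi27 (0.62). The sums share libraries, depth and cell classes, and the values are descriptions. Among the members, each of which is part of that mean, Phlda3 had r = 0.78 in skin and 0.88 in kidney. Cdkn1a had 0.72 in kidney and −0.12 in skin.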

How the data were processed

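Raw UMI counts per gene and cell barcode were deposited by the authors for each library as filtered matrices from 10x 3′ libraries. The submitters' processing notes name mm10, Cell Ranger 3.0.2 and Seurat 2.3.4, and the file headers name Cell Ranger 3.0.2, 3.1.0 and 4.0.0. Barcodes under 200 genes or over 20% mitochondrial UMIs were removed, doublets scored by scrublet (scanpy 1.11.5) were left out at 0.8% per 1000 barcodes, and classes came from the marker gates. Gates rest on a marker being raised, at least 1 UMI and at least 50% of the mean share over the kept cells of the tissue. UMI sums per library and class with at least 10 cells, over 30406 genes shared by gene ID (31053 or 32286 per list), were fitted across all genes with edgeR 4.0.16 in R 4.3.3 (TMM, filterByExpr, quasi-likelihood F test, Benjamini-Hochberg adjustment at 0.05), with DESeq2 1.42.0 as an alternative. Standard errors are the log2 fold change divided by the square root of F.

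Over all skin cells same-numbered libraries deviated together (correlations of 0.388, 0.243 and 0.690). So did bleomycin 1 with PBS 2 (0.409) and bleomycin 2 with PBS 1 (0.344), so the numbers did not pair replicates 1 and 2 there. In stromal-like cells the same-numbered correlations were 0.232, 0.240 and 0.411, against 0.043 and −0.024 for those mismatched pairs. Fits with the replicate block are given where they change a call. In kidney the numbers did not pair the libraries. Likeness was Pearson correlation of log2(CPM + 1) centred within class. The members and gene lists were chosen with earlier results of these data known. Named were the 10 members, list genes past the threshold or up to 4 per list by p, and the 5 genes most like the members per tissue. Of the fits, 7 were tested on simulated data. The alternatives without PBS 1 and PBS 3, without shared barcodes, and without vehicle 3 and AA 1 were added after seeing the data.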

Additional observations from a re-analysis of the deposited data

Results flagged for a closer look

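Kidney cells that passed no gate were outside the comparisons of named classes. In the library labelled SARATg AA 1 (885 such cells) all 10 members lay above both SARATg vehicle libraries. The share of all genes that did the same was not counted, so this is not read as particular to the members. Cdkn1a was at 1226 CPM against 33.7 and 50.5, Phlda3 at 359.4 against 13.1 and 16.8, and Ccng1 at 436.8 against 44.5 and 61.2. Mdm2 was at 228.9 CPM against 41.1 and 36.6, and Bax at 377.7 against 126 and 137. Eda2r was at 21.59 CPM against 0.285 and 0, Aen at 114.4 against 20.3 and 21.8, and Zmat3 at 66.45 against 6.56 and 7.4. Trp53inp1 was at 149.2 CPM against 77.0 and 112, and Sesn2 at 40.72 against 4.85 and 9.45. The same cells of the SARAWT libraries had 30.1, 47.6 and 168 CPM of Cdkn1a with vehicle and 127, 503 and 257 with AA. In the edgeR fit of those SARAWT sums Cdkn1a was not called (log2 fold change 1.63, SE 0.76, unadjusted p = 0.070). The values of the library labelled SARATg AA 1 come from a single library and have no test.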

How the results depend on the processing

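With all libraries, 0 members were called over all cells in either tissue, 3 in skin classes and 0 in kidney classes, and 0 for each test of a difference. Leaving out 1 library in turn gave 0 to 2 members over all skin cells (2 without PBS 3), 0 to 4 over all kidney cells (4 without vehicle 3), 0 to 6 in skin classes (1 without PBS 1 or bleomycin 2, 0 without bleomycin 1 or bleomycin 3, 6 without PBS 3) and 0 to 9 in kidney classes (9 without vehicle 3). It gave 0 to 5 for the difference between tissues and 0 to 7 for that between cell types (2 without PBS 3, 7 without vehicle 3). In classes with such calls, 1.31 and 1.45% of genes were called in skin without PBS 3. In kidney classes without vehicle 3 the share was 1.51 to 11.7%. Between tissues it was 0.349 to 17.3% without vehicle 3. Between cell types it was 3.15% without PBS 3 and 3.39 and 6.45% without vehicle 3. In skin classes the count was 5 with DESeq2, 8 without the filter on low counts, 12 with both genotypes (6 of them in stromal-like cells) and 5 with the gene list as a term (with 1.71 to 6.67%, 0.872 to 4.86%, 4.62 to 14.1% and 2.13 to 3.56% of genes called there). It was 2 with the stricter cell filter (1.60 and 2.43% of genes called), 1 with a gate of 4 markers (2.93%) and 1 without shared barcodes (0.828%). The fits without PBS 1 and PBS 3 left 1 PBS library and are not counted. Over all skin cells both genotypes gave 2, against 11.7% of 15894 genes called. No filter on low counts gave 3 in kidney classes (where 1.04 to 2.93% of genes were called), 7 between genotypes in kidney (0.118 to 1.87%), 1 between tissues (0.657%) and 1 between cell types, in skin (3.04%), and DESeq2 gave 1 between genotypes (0.421%). The calls between genotypes rest on 1 library labelled SARATg AA, whose Zfyve9 goes against that label, and no difference is read from them. Without vehicle 3 and AA 1 there were 4 over all cells (9.33% of genes called). There was 1 in macrophage-like cells (8.36%), 1 in neutrophil-like cells (1.43%) and 3 between proximal tubule-like and macrophage-like cells (4.37%). Dendritic-like cells, with 1 AA library left, are not counted there. Counts in kidney classes leave out the sub-gates of the proximal tubule.

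In skin, where the numbers did not pair replicates 1 and 2 over all cells, the replicate block gave 6 calls in classes. They were Phlda3, Ccng1 and Bax in stromal-like, Cdkn1a and Phlda3 in endothelial-like and Cdkn1a in mural-like cells. The call of Phlda3 in Schwann-like cells was lost (1.76). Kidney libraries share only a number (correlations of −0.470, 0.505 and 0.507 over all cells), and there the block gave 1 call in classes, Cdkn1a in endothelial-like cells (2.18, with 2.09% of genes), and 1 between genotypes (0.137%). The block changed no other count of members called.

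Signs were followed for the members over all cells, in stromal-like and in proximal tubule-like cells and for the calls in endothelial-like and Schwann-like cells, and not in other classes. They turned for 6 members, in results that were not called in the main test. Leave-one-out values ran from −0.31 to 0.96 for Trp53inp1, −0.36 to 0.01 for Sesn2 and −0.03 to 0.59 for Aen over all skin cells, from −0.34 to 0.16 for Cdkn1a in stromal-like cells and from −0.14 to 0.48 for Ccng1 over all kidney cells. Eda2r over all skin cells was −0.04 and Cdkn1a in stromal-like cells 0.14 without shared barcodes, and Ccng1 over all kidney cells −0.03 with the stricter cell filter. The cause was not tested. Of those log2 fold changes under the alternatives, 608 kept their direction and side of the threshold, 35 newly passed it, 21 no longer did and 9 changed sign. RLE size factors and doublets kept changed no call.

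Gene counts moved as well. Over all skin cells 0 genes were called in the main test, 1343 with DESeq2, 402 without the filter, 588 with the block, 1860 with both genotypes, 896 with the gene list and 1042 without PBS 3. In stromal-like cells 169 were called, 676 with DESeq2, 912 without the filter, 851 with the block, 1546 with both genotypes, 6 without shared barcodes, 4 without PBS 1 and PBS 3 and 0 to 139 leaving out 1 library. Tests of simulated data had little power over all kidney cells, for drug by genotype in kidney and for drug by tissue over all cells.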
